A study of Mus musculus with 56 samples.

Results

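Cytosolic MBNL1 was added back to cells whose own Mbnl1 had been knocked down, and its effect on RNA levels and on exon choice is described here. The members are 6 of the 56 mouse samples of the series, chosen by their titles, and they belong to a co-transfection experiment of 15 samples. All were N2a cells, a mouse neuroblastoma line, into which a small interfering RNA (siRNA) and a plasmid were introduced together with Lipofectamine 3000. In 3 samples the siRNA targeted Mbnl1 and the plasmid coded for FLAG-tagged cytosolic MBNL1 (siMbnl1 cMBNL1). In the other 3 the same siRNA went with the control plasmid pcDNA (siMbnl1 pcDNA), so the knockdown was shared by both groups. Another 3 groups are used only for reference, each with 3 samples: non-targeting siRNA with pcDNA (siNT pcDNA), siRNA against Fmr1 with pcDNA (siFmr1 pcDNA), and siRNA against Fmr1 with FLAG-tagged nuclear MBNL1 (siFmr1 nMBNL1). The labels do not say whether replicates were separate cultures, so every p-value measures the spread between these samples only, which may be technical. For skipped exons that spread was pooled over all events, so it is not that of the single exon.

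MBNL proteins are zinc-finger proteins that bind RNA at short motifs built around GC, and they help to set the adult pattern of alternative splicing in muscle and brain. In the nucleus they promote or block the use of an exon depending on where they bind relative to it. In the cytoplasm they bind mRNA as well, where they have been tied to mRNA location and stability. A short alternative exon of Mbnl1 contributes to holding the protein in the nucleus, and MBNL proteins control that exon in their own transcripts.

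The libraries were alike in scale. Normalized values summed to between 32652116 and 33273189 in the 6 samples, and the junction reads of the skipped exon tables came to between 31412904 and 49289561 per sample. Of 20 neuronal and neuroblastoma markers, 17 had a mean of at least 50 normalized values. Their summed level was 81900 to 94300 in siMbnl1 pcDNA and 89600 to 97300 in siMbnl1 cMBNL1. Summed markers of other cell types overlapped between the groups for epithelial cells (150 to 157 and 131 to 155), fibroblasts (208 to 221 and 159 to 212), immune cells (46.8 to 56.6 and 34.4 to 48.8), glia (338 to 398 and 394 to 435) and muscle (7600 to 8990 and 8880 to 10200). Lum, Aif1 and Myh1 were at 0 in all 6 samples.

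Mbnl1 itself was the gene with the smallest p-value. Its normalized values were 19178, 23338 and 16769 with cMBNL1 and 1408, 1538 and 1509 with pcDNA, so the lowest cMBNL1 sample lay far above the highest pcDNA sample. Mean levels were 19762 ± 3323 (SD, n = 3) and 1485 ± 68.2 (SD, n = 3), a difference of 3.72 ± 0.11 (SE) on the log2(value + 1) scale in limma (adjusted p = 5.06e-12). The siNT pcDNA samples had a mean of 4396 ± 629 (SD, n = 3). Reads from the plasmid and from the cell's own gene were not separated in these values, and a gene-level value does not show how much protein was made. In bulk RNA, a change in the share of cells that express a gene and a change in RNA per cell cannot be told apart.

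Junction reads showed which exons the added RNA held. The 2 Mbnl1 exons that differed most are shown with 20 bases of each neighbouring exon, the exon in capitals and the neighbours in lower case, together with the matching exon of Mbnl2 (GRCm38, transcript strand, GENCODE M21 transcripts).
Mbnl1 exon of 54 bases: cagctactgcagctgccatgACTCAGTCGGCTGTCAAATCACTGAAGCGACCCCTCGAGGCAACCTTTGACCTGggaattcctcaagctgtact
Mbnl1 exon of 36 bases: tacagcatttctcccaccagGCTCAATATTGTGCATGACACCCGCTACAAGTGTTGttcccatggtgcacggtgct
Mbnl2 exon of 54 bases: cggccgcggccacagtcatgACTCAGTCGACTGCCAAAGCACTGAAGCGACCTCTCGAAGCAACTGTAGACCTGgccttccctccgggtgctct

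The Mbnl1 exon of 54 bases lies at chr3:60614683-60614736 on the plus strand and is coding. It was almost absent from the added RNA: skipping reads numbered 9761, 11936 and 9200 with cMBNL1, against inclusion reads of 40, 54 and 58. Its inclusion level, the share of length-scaled junction reads that join the exon, was 0.003, 0.00331 and 0.00461 with cMBNL1 and 0.726, 0.684 and 0.8 with pcDNA. The coding exon of 36 bases at chr3:60621423-60621458 was the reverse, with 26607, 30443 and 23277 inclusion reads and 0, 4 and 1 skipping reads with cMBNL1. The nuclear plasmid gave the opposite combination in siFmr1 cells, with 16459, 19731 and 16329 inclusion reads over the 54-base exon and 15253, 18995 and 14550 skipping reads over the 36-base exon. Not every Mbnl1 junction rose with the plasmid. Inclusion reads of the 201-base exon at chr3:60603694-60603894 were 97, 77 and 99 with cMBNL1 and 72, 91 and 219 with pcDNA, so the groups overlapped there.

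**Figure D1:**
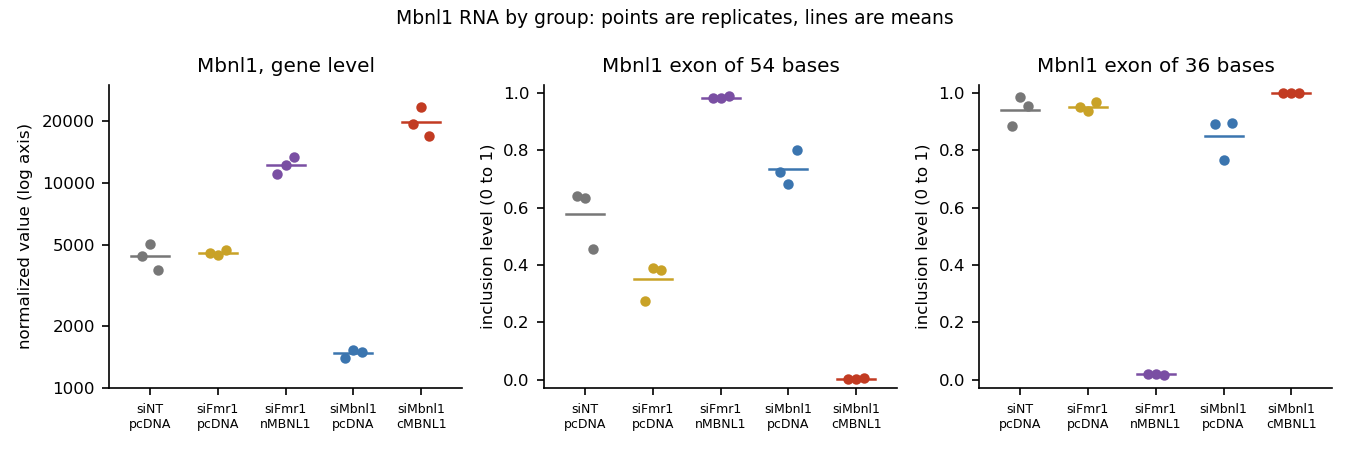
Mbnl1 in the 5 co-transfection groups, as normalized value (left, log axis) and as inclusion level of its exons of 54 bases (middle) and 36 bases (right), with a point per replicate and a line at the mean. The siMbnl1 cMBNL1 samples lie highest at the gene level, near 0 for the 54-base exon and near 1 for the 36-base exon.

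Relatives of Mbnl1 did not pass the test at the gene level. Mbnl2 was 3420, 3432 and 3674 with cMBNL1 and 3798, 3883 and 3706 with pcDNA, a log2 difference of -0.11 (limma adjusted p = 0.276). Mbnl3 was listed between 1.21 and 4.11 in all 6 samples (adjusted p = 0.679). Fmr1, whose product FMRP also binds mRNA, had overlap-free but close values of 2652, 2710 and 2615 with cMBNL1 and 2908, 3092 and 2764 with pcDNA, and its difference did not pass either (adjusted p = 0.596). Of the FMRP family, Fxr2 differed by 0.31 ± 0.08 (SE, limma adjusted p = 0.0495). It did not pass when the replicate number was added to the fit as a block (adjusted p = 0.0692).

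Across genes, 364 of 16242 tested passed a limma adjusted p under 0.05 (2.24%). Of these, 233 were higher with cMBNL1 (1.43%) and 131 were lower (0.807%), and 44 changed by at least 1 on the log2 scale, 35 upward and 9 downward. Replicates of the 2 groups did not overlap in any of the 364, while 34% of all tested genes had groups that did not overlap. The number called rested on which samples set the spread. The fit held all 15 co-transfection samples, and with the 6 samples alone 2367 genes passed (14.6%), 1289 higher and 1078 lower, including 363 of the 364. The siNT pcDNA samples spread more widely than the others, with a median SD of 0.236 on the log2 scale against 0.0963 to 0.113 in the other groups.

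The named genes of largest increase have varied roles. Lpar3, a receptor for the signalling lipid lysophosphatidic acid, was 244, 271 and 215 with cMBNL1 and 12.6, 27.8 and 19.3 with pcDNA. Its groups were far apart, at 12.2-fold (log2 difference 3.61 ± 0.33 SE, limma adjusted p = 2.84e-05). Cdnf, a secreted protein that protects dopamine neurons, was 366, 404 and 349 with cMBNL1 and 55.1, 64 and 40.8 with pcDNA. This was a 7.01-fold difference (adjusted p = 1.79e-07), and the siNT pcDNA mean of 62.7 lay at the pcDNA level. Tmco5b, a coiled-coil transmembrane protein gene, was 214, 190 and 155 with cMBNL1 and 30.6, 18.1 and 26.4 with pcDNA (log2 difference 2.87, adjusted p = 2.39e-06).

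A further 4 genes rose to a mean above 100. Tcam1 went from 30.9 to 141 (log2 difference 2.19, limma adjusted p = 0.000221). H2-DMa, a chaperone of antigen loading, went from 42.2 to 149 (log2 difference 1.80, adjusted p = 2.72e-05), though it overlaps Brd2 on the other strand and a further model on its own strand. B3galt4, a galactosyltransferase of ganglioside synthesis, was 119, 196 and 136 with cMBNL1 and 42.4, 45.9 and 45.6 with pcDNA (adjusted p = 0.00564). Dcdc2a, a microtubule-binding doublecortin-domain gene, went from 106 to 304 (log2 difference 1.56, adjusted p = 0.000932). Gm28042 and Gm11517 also passed (adjusted p = 0.0419 and 0.0228) but are uncertain, since the first overlaps Jmjd7 and Pla2g4b on its strand and the second is a processed pseudogene.

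Decreases were smaller. Ugt3a2, a UDP-glycosyltransferase, was 299, 277 and 304 with cMBNL1 and 549, 622 and 566 with pcDNA, with clearly separate groups (1.97-fold lower, log2 difference -0.98 ± 0.10 SE, limma adjusted p = 5.43e-05). The siNT pcDNA mean was 499. Idi1, an isomerase of the cholesterol pathway, was 3353, 3500 and 3351 with cMBNL1 and 5002, 5244 and 4750 with pcDNA (log2 difference -0.55, adjusted p = 0.00243). Egr3, an immediate early transcription factor, was 246, 322 and 215 with cMBNL1 and 427, 518 and 440 with pcDNA (log2 difference -0.84, adjusted p = 0.0290). Calcrl, the receptor part of the calcitonin gene-related peptide receptor, was 401, 302 and 506 against 753, 635 and 716 (log2 difference -0.83, adjusted p = 0.0202). Kcnj9, an inwardly rectifying potassium channel, was 39.4, 48.4 and 26.4 against 65.9, 73.7 and 71.6 (log2 difference -0.91, adjusted p = 0.0410, or 0.0579 with the replicate block).

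The other genes named among the decreases were Taf7l (log2 difference -1.60), Prdm8 (-1.12), Ssxb3 (-1.11), Rex2 (-0.76), Ankrd1 (-0.76) and Pcdhb16 (-0.76). All passed the test with a limma adjusted p between 0.0309 and 0.0475, close to the threshold. With the replicate block, Ankrd1 (adjusted p = 0.0579) and Pcdhb16 (0.0613) no longer passed. Leaving out 1 of the 6 samples ended many calls: between 37 genes (without pcDNA replicate 1) and 182 genes (without pcDNA replicate 3) passed, and 31 passed in all 6 such fits. Those 31 included Mbnl1, Lpar3, Tmco5b, Cdnf, Tcam1, H2-DMa, B3galt4, Dcdc2a, Idi1 and Ugt3a2, which are 10 of the 35 named genes that passed.

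**Figure D2:**
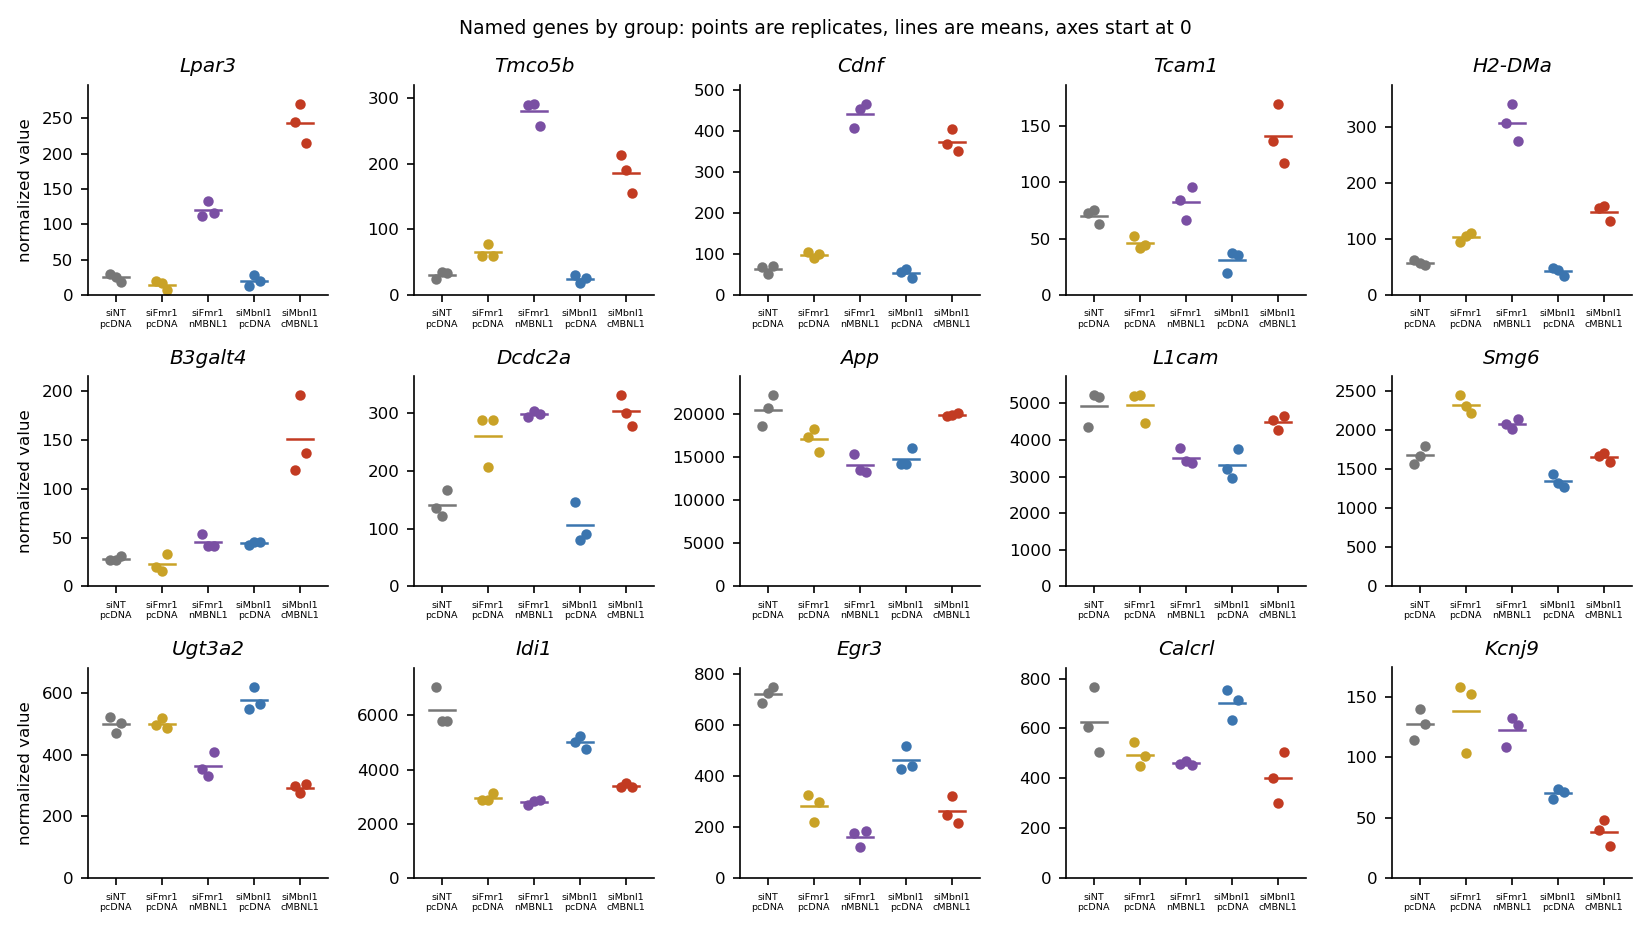
Normalized values of 15 named genes in the 5 co-transfection groups, with a point per replicate, a line at the mean and every axis starting at 0. The siMbnl1 cMBNL1 samples lie above all siMbnl1 pcDNA samples in the 10 upper panels and below them in the 5 lower ones.

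Among splicing regulators, none of the 49 tested genes passed limma's adjusted p, beside 2.24% of all genes. In the fit of the 6 samples alone 4 were higher and 2 lower, beside 7.94% of all genes higher and 6.64% lower, so both counts lie near the share over all genes. Their median log2 difference was -0.03, beside -0.003 over all tested genes. The unfolded protein response (16 tested), heat shock (12), ATF4 and amino acid stress (22), glutathione and NRF2 targets (24), mitosis (20), oxidative phosphorylation (17), glycolysis and hypoxia (25), extracellular matrix and integrins (21) and histone genes (13) had no member past the threshold either. In the fit of the 6 samples alone these lists had 1 to 6 members higher and 0 to 5 lower. The unfolded protein response had 5 of 16 higher and none lower, and oxidative phosphorylation 1 of 17 higher and 5 lower.

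A few lists held 1 to 3 members that passed, beside 1.43% of all genes higher and 0.807% lower. With lists of 15 to 33 tested genes, a count of 1 or 2 can lie above that share and is still too small to be a result about the list. The lists were not tested against that share. Each count is therefore followed by that in the fit of the 6 samples alone, where the shares over all genes were 7.94% and 6.64%. Among interferon-stimulated genes 2 of 28 rose (6 higher and 1 lower in the 6-sample fit, 1 higher with the replicate block), among them the RNA sensor Ddx58 (adjusted p = 0.0346). Ddx58 was 423, 401 and 425 with cMBNL1 and 266, 281 and 330 with pcDNA. The list's median log2 difference was 0.28, and the siNT pcDNA mean of Ddx58 was higher than either group, at 631. Of the p53 targets, 2 of 15 tested were lower, and the same number in the 6-sample fit: Ccng1 (-0.32, adjusted p = 0.0495, or 0.0637 with the replicate block) and Trp53inp1 (-0.56, adjusted p = 0.0277). The list's median was -0.07.

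Among genes of neurons, L1cam, a cell adhesion molecule of axons, rose by 0.45 on the log2 scale (adjusted p = 0.0289), alone of 28 tested genes of the cytoskeleton, vesicle and axon list, whose median was 0.14. In the 6-sample fit 7 genes of that list were higher and 1 lower. Of the neuroblastoma markers, 2 of 20 also rose (6 higher and 1 lower in the 6-sample fit, 1 higher with the replicate block). One was Dbh, the enzyme that makes noradrenaline, at 257, 247 and 223 with cMBNL1 against 157, 107 and 155 with pcDNA (adjusted p = 0.0375). In the 2 groups the whole marker list had overlapping sums, as given above. Of 29 tested mRNA decay genes 2 passed, both higher (7 higher and 2 lower in the 6-sample fit). Among them was Smg6, an endonuclease of nonsense-mediated decay, at 0.31 (adjusted p = 0.0385, or 0.0561 with the replicate block).

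Of the cholesterol and fatty acid list, Idi1 and Cyp51 fell among 25 tested (median -0.09), and in the 6-sample fit 7 were lower and 4 higher. Cyp51, a sterol demethylase, differed by -0.34 (adjusted p = 0.0248). Of 19 immediate early genes Egr3 passed, and in the 6-sample fit 8 were lower and none higher. Of 20 DNA replication genes Mcm7 passed (0.26, adjusted p = 0.0323), and in the 6-sample fit 8 were higher and 1 lower. Of 19 genes of the SRF and actin list Ankrd1 passed, and in the 6-sample fit 4 were higher and 2 lower. In genes with described MBNL exons, Mbnl1, App (0.43, adjusted p = 0.0236) and Csnk1d (0.30, adjusted p = 0.0309) rose of 33 tested, and 9 were higher and none lower in the 6-sample fit. App, the amyloid precursor, was 19718, 19866 and 20062 with cMBNL1 and 14179, 14214 and 16072 with pcDNA.

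Exon choice was tested on junction reads. Of 46967 skipped exon events listed for both groups, 37709 were tested because each group averaged 20 or more reads over the junctions, covering 30029 exons, and 99.6% of these events matched an exon of GENCODE M21. A quasi-binomial test with a difference of at least 0.1 called 155 events (0.411%), 57 higher (0.151%) and 98 lower (0.26%) with cMBNL1. They were 149 exons in 127 genes, and in a few of the events the replicates of the 2 groups overlapped. Leaving out the Mbnl1 events, whose junctions hold plasmid reads, 55 were higher and 96 lower. The number depended heavily on the test, since limma on log2 ratios of the same reads called 5, and on a rule for degrees of freedom that was settled after the first results of these data had been seen. The first form of that rule called 177 events with all replicates but only 0 to 2 when 1 replicate was left out, while the form used here called 107 to 155.

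**Figure D3:**
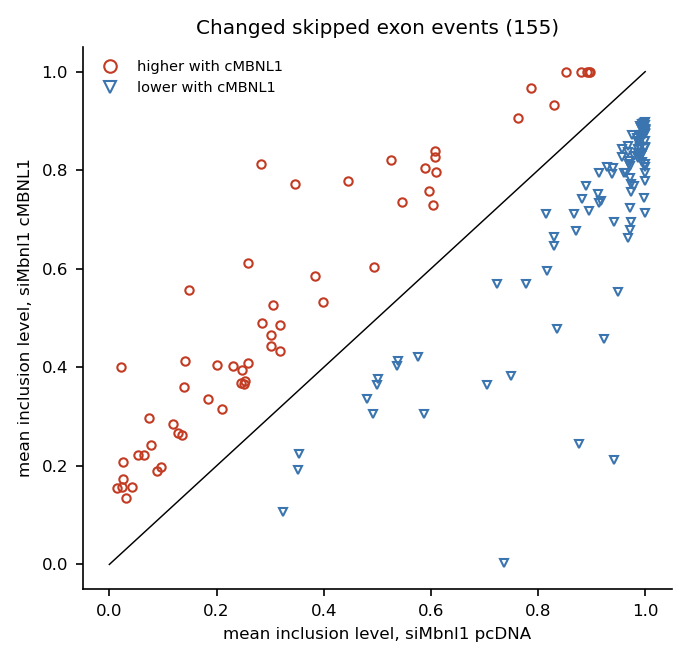
Mean inclusion level of the 155 called skipped exon events in siMbnl1 pcDNA (x axis) and siMbnl1 cMBNL1 (y axis), circles for the 57 higher events and triangles for the 98 lower ones, with the line of equal inclusion. Many of the lower events start near full inclusion on the x axis.

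Exons that rose had a median length of 77 bases, beside 121.0 for those that fell. Of them, 4 are shown with 20 bases of each neighbouring exon in lower case (GRCm38, transcript strand, GENCODE M21 transcripts), as the clearest examples of added inclusion.
Espn exon of 27 bases: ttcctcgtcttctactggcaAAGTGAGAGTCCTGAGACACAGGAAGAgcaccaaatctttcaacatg
Picalm exon of 24 bases: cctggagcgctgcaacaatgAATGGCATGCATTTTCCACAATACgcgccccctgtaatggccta
Prune2 exon of 36 bases: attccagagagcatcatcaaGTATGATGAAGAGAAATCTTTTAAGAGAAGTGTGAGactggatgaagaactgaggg
Spag9 exon of 39 bases: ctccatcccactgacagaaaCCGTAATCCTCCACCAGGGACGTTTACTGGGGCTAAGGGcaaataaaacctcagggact

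Picalm is a clathrin adaptor of endocytosis, and its 24-base exon (chr7:90194273-90194296) was included at 0.348, 0.339 and 0.39 with cMBNL1 and at 0.122, 0.145 and 0.151 with pcDNA. The siNT pcDNA replicates lay between the groups, at 0.175, 0.252 and 0.263. The difference was 0.22 (adjusted p = 1.2e-40), on 1050 to 1157 junction reads per replicate with cMBNL1. Spag9, a scaffold of motor transport, included its 39-base exon (chr11:94113263-94113301) at 0.358, 0.408 and 0.417 against 0.268, 0.229 and 0.246 (difference 0.147, adjusted p = 1.08e-05). In siNT pcDNA it was 0.404, 0.491 and 0.471.

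Espn, which bundles actin, included its 27-base exon (chr4:152129612-152129638) at 0.401, 0.423 and 0.377 with cMBNL1 against 0.0659, 0 and 0 with pcDNA. No inclusion reads were found in 2 of the pcDNA replicates, which had 43 and 62 skipping reads (difference 0.378, adjusted p = 2.26e-05). Its siNT pcDNA replicates were 1, 0.29 and 0.311, on 11 inclusion and 0 skipping reads for the first. Prune2 included its 36-base exon (chr19:17211678-17211713) at 0.782, 0.82 and 0.861 against 0.581, 0.468 and 0.529 (difference 0.295, adjusted p = 3.41e-06), and the siNT pcDNA level was 0.749 to 0.866. Itga6, an integrin chain, included its 130-base exon (chr2:71853534-71853663) at 0.46, 0.499 and 0.5 against 0.349, 0.277 and 0.329 (adjusted p = 5.38e-06).

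Several increases rested on few reads or single replicates. Camk2d, a calcium-dependent kinase, went from 0.151, 0.125 and 0.172 to 0.429, 0.631 and 0.614 at its 60-base exon (adjusted p = 0.0136), but on 20 to 42 reads per replicate, and it was called in 2 of the 6 fits that leave out a replicate. Its siNT pcDNA mean was 0.0462, below both groups, on few reads and with 0 reads in replicate 3. H2afy (91-base exon, difference 0.529, called in 5 of 6), Cops2 (83 bases, 2 of 6), Lef1 (84 bases, 4 of 6), Tbc1d24 (18 bases, 3 of 6, adjusted p = 0.105 with the replicate block) and Polh (215 bases, 4 of 6) also lost the call in some of these fits. Of the described MBNL genes, Mapt (0.151, 93 bases), Csnk1d (0.109, 63 bases) and Pphln1 (0.102, 57 bases) were higher, and they were called in 5, 5 and 2 of the 6 fits. The main test used 1 dispersion for all events. With a dispersion not below the event's own, H2afy, Cops2, Lef1, Tbc1d24 and Mapt did not pass (quasi-binomial adjusted p = 0.0992, 0.484, 0.0942, 0.237 and 0.0927).

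Exons that fell included those of Exoc1 and Ppp1r12a, both described as MBNL targets, and 2 of Mbnl2. The exons of Exoc1 and Clta are shown in the same way, beside the Mbnl2 exon of 54 bases above.
Exoc1 exon of 45 bases: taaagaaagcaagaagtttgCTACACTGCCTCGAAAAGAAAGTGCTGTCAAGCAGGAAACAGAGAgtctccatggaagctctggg
Clta exon of 54 bases: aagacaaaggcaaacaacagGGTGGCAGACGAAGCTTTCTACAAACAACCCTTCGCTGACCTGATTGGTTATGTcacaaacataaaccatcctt

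Exoc1, a subunit of the exocyst that tethers vesicles, included its 45-base exon (chr5:76557819-76557863) at 0.548, 0.508 and 0.601 with cMBNL1 against 0.905, 1 and 0.942 with pcDNA (difference -0.397, adjusted p = 5.65e-06). Clta, the clathrin light chain, included its 54-base exon (chr4:44030215-44030268) at 0.41, 0.384 and 0.352 against 0.805, 0.806 and 0.637 (difference -0.367, adjusted p = 5.19e-06). The siNT pcDNA level of Clta, 0.406 to 0.558, overlapped the cMBNL1 replicates.

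Celf3, an RNA-binding splicing factor, had the largest decrease outside Mbnl1, at a 254-base exon without coding sequence (chr3:94487135-94487388): 0.2, 0.323 and 0.21 against 0.867, 0.879 and 0.882. Reads were few, with 18 to 46 per replicate with cMBNL1 (difference -0.631, adjusted p = 3.98e-05). In siNT pcDNA this exon was at 0.714, 1 and 0.913, also on few reads, around the pcDNA level and away from that with cMBNL1. Ppp1r12a, the myosin phosphatase targeting subunit, included its 171-base exon (chr10:108253325-108253495) at 0.671, 0.61 and 0.659 against 0.874, 0.786 and 0.829 (difference -0.183, adjusted p = 1.08e-08). Its siNT pcDNA replicates, at 0.893, 0.866 and 0.818, likewise lay around the pcDNA level. Lins gave 2 overlapping events that share a start and end differently, at -0.466 and -0.304. Hsd3b7, Tdp2 (adjusted p = 0.0631 with the replicate block) and 2 exons of Fn1 also fell, and each lost the call in some fits without a replicate.

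Mbnl2 is the main relative of Mbnl1, and its 54-base exon at chr14:120395712-120395765 has the same length and 46 of 54 bases (85.2%) in common with the Mbnl1 exon shown above. It was included at 0.341, 0.291 and 0.377 with cMBNL1 and at 0.479, 0.442 and 0.523 with pcDNA, separate groups that lay on either side of the siNT pcDNA replicates of 0.403, 0.393 and 0.414 (difference -0.145, adjusted p = 0.000184). The 95-base exon of Mbnl2 at chr14:120404638-120404732 was included at 0.764, 0.708 and 0.785 against 0.934, 0.928 and 0.876 (difference -0.16, adjusted p = 5.37e-07). Both calls held in all 6 fits without a replicate. The other 7 tested Mbnl2 events were not called.

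**Figure D4:**
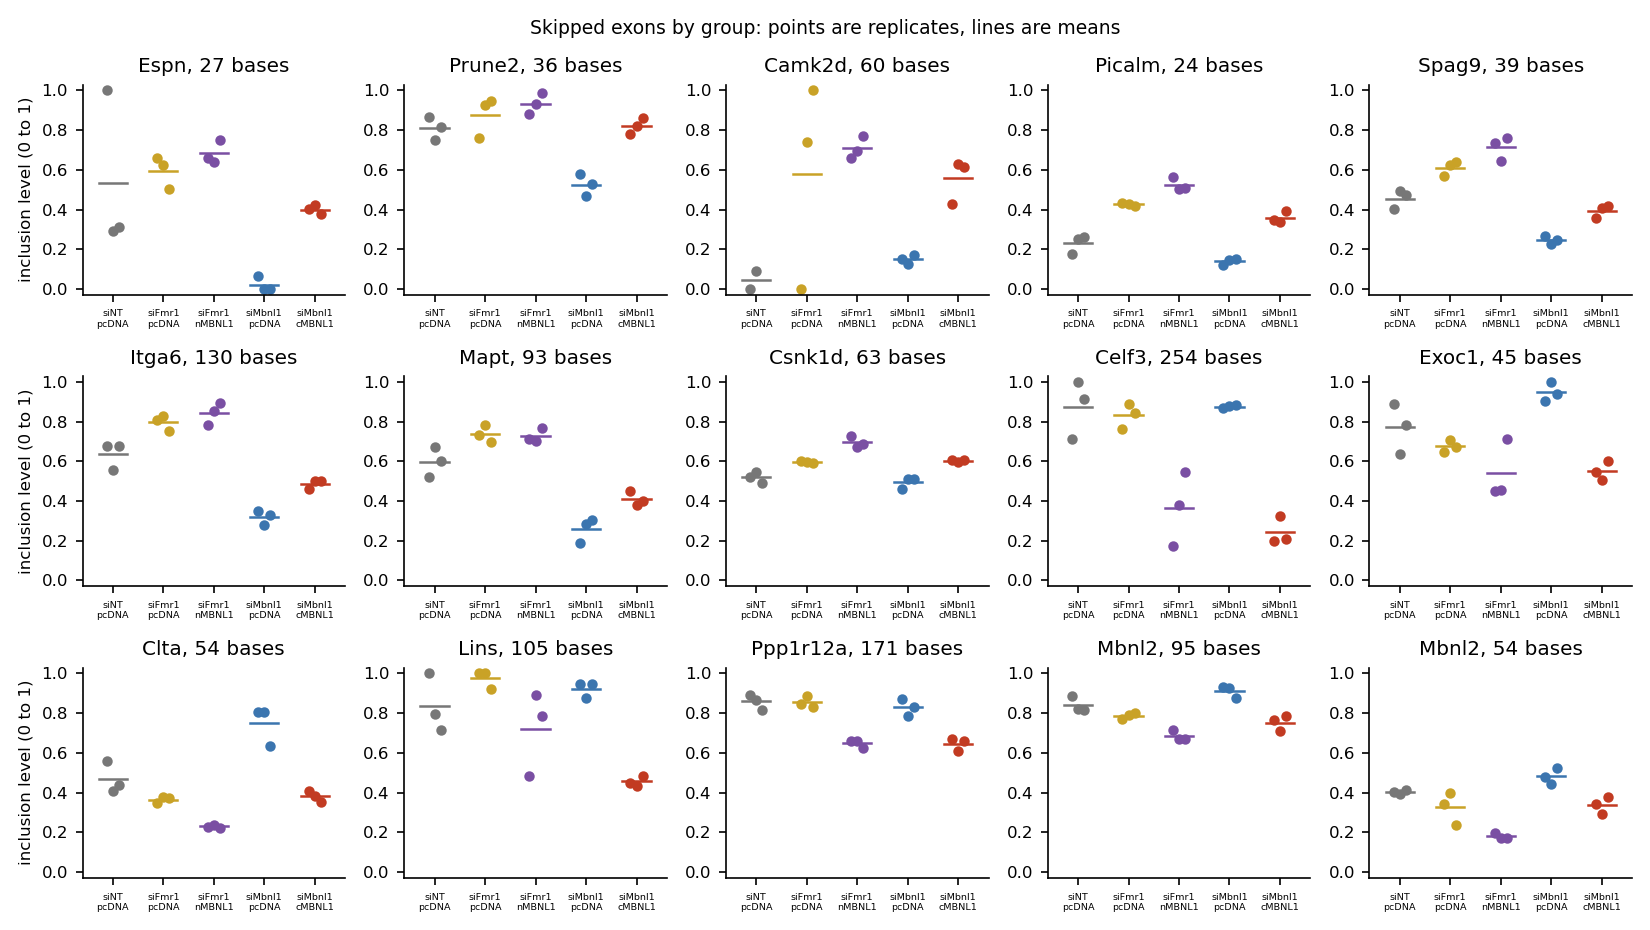
Inclusion level (0 to 1) of 15 skipped exons in the 5 co-transfection groups, with a point per replicate and a line at the mean. In the first 8 panels the siMbnl1 cMBNL1 replicates lie above those of siMbnl1 pcDNA, and in the last 7 they lie below.

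Of genes with described MBNL exons, 29 of 34 had tested events. Of their 251 events 18 were called (7.17%, beside 0.411% over all events), or 14 of 244 without Mbnl1, and at the level of exons 9 were higher and 8 lower. The list was put together with earlier results of these data known, so its count is a description. Of the 52 splicing regulators 38 had tested events, and among these only Celf3 had a called event, of 203 tested (0.493%). None of the 13 events of the FMRP family was called.

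The called events were compared with the other tested events in length and in inclusion with pcDNA. Lengths divisible by 3, which keep the reading frame, made up 60.6% of called events (94 of 155), 41.3% of the 9450 tested events that were not almost always or almost never included, and 38% of all tested events. Exons of at most 27 bases made up 8.39% of called and 2.14% of those alternative events. Of the 98 lower events, 60 had a mean inclusion of at least 0.95 with pcDNA, and 50 of these also in siNT pcDNA. Such near-constant events numbered 29754 among those tested, of which 0.202% were called lower. Inclusion with pcDNA is part of what the test compares, and an event at 0.95 or above could only be called lower. This count is thus a description.

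Short motifs of the kind that MBNL proteins bind were counted on the transcript strand within each exon, as CGCC and CGCT, and with the first letter changed as TGCC and TGCT, on that strand alone. Exons that fell held 3.25 per 100 bases, exons that rose 1.77, and other alternative exons 1.72, with the bases of each set pooled. The medians over single exons were 2.59, 1.04 and 1.41, so exons that rose lay below other alternative ones on that measure. Among exons near full inclusion with pcDNA, those that fell held 3.31 and those not called 1.54. Of exons of 30 to 90 bases, at least one match was present in 67.9% of those that fell, 61.5% of those that rose and 56.9% of other alternative ones. A match is no proof of a binding site, exon lengths differ between these sets, and introns were not searched.

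In 3′ untranslated regions, the same letters had a median of 15.4 per 1000 bases in genes that rose (221 genes with a region), 9.16 in genes that fell (110) and 12.5 in all tested genes (14492). Of the 127 genes with a called exon, 8 also passed at the gene level (6.3%, beside 2.24% of all tested genes), which is 2.2% of the genes that passed. Mbnl1 is one of the 8, and the difference between these shares was not tested.

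Other event types were tested in the same way, beside the 0.411% called among skipped exons. Mutually exclusive exons had 16 of 8286 called (0.193%), 10 with a higher and 6 with a lower inclusion level. The event of largest difference was in Rapgef1 (-0.397, adjusted p = 0.0207), which went from 1 in all pcDNA replicates to a mean of 0.603 with cMBNL1. Alternative 3′ splice sites had 2 of 1155 (0.173%), in Magi1 (-0.162) and Sf1. Alternative 5′ splice sites had 1 of 837 (0.119%), in Mtif2 (-0.125). Retained introns had the highest share, 5 of 255 (1.96%), with 2 higher, in Dnajb2 (0.188) and Med22 (0.135), and 3 lower, in Tmub2 (-0.142), Luc7l (-0.139) and Bicd2 (-0.115). Pkm, whose paired exons set the isoform of pyruvate kinase, was chosen after its values were seen: the upstream exon of its mutually exclusive pair was used at 0.454 ± 0.00985 with cMBNL1 and 0.324 ± 0.00809 with pcDNA (SD, n = 3, adjusted p = 1.65e-17).

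The nuclear plasmid offered a second addition of MBNL1 with no sample in common, though in siFmr1 cells, so plasmid and siRNA cannot be told apart in the comparison. It called 286 genes, 103 higher (0.634%) and 183 lower (1.13%). Of the 233 genes higher with cMBNL1, 20 were also higher with nMBNL1, which is 8.58% of the first list and 19.4% of the second. Of the 131 lower, 7 were lower in both, or 5.34% and 3.83%. Opposite calls were made for 5 genes higher with cMBNL1 and lower with nMBNL1, and for 0 the other way. L1cam was one of the 5, with log2 differences of 0.45 and -0.49. Among the genes that rose with both were Lpar3, Tmco5b, Cdnf and H2-DMa, with siFmr1 nMBNL1 values of 111, 133 and 116 for Lpar3 and 406, 453 and 466 for Cdnf. Ugt3a2 and Egr3 fell with both.

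For skipped exons, the nuclear plasmid called 199 of 30538 events (0.652%), 61 higher (0.2%) and 138 lower (0.452%). Of the 155 events called with cMBNL1, 148 were also tested there. Of 53 higher with cMBNL1, 12 were also higher with nMBNL1 (22.6%, or 19.7% of the nMBNL1 list), and of 95 lower, 37 were also lower (38.9%, or 26.8%). Opposite calls occurred in 2 events of each direction, in Mbnl1 and Ap1b1. Ppp1r12a fell by 0.207 with nMBNL1, and Mbnl2 fell by 0.146 at its 54-base exon.

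Differences between the 2 plasmid effects were tested directly. For exons this was done on the log-odds, the log ratio of inclusion to skipping reads. Effects of like size in inclusion can therefore differ in the test when they start from different levels. They passed for 257 of 16242 genes (1.58%), and for 54 of 30538 exon events (0.177%), and 18 of the 148 events called with cMBNL1 were among them (12.2%). Picalm's exon rose by 0.22 with cMBNL1 and by 0.1 with nMBNL1, from a level of 0.426 in siFmr1 pcDNA. At the Scarb1 exon of 129 bases, chosen after its values were seen, inclusion rose by 0.134 with cMBNL1 and fell by 0.0797 with nMBNL1 (adjusted p of the difference = 2.49e-08).

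**Figure D5:**
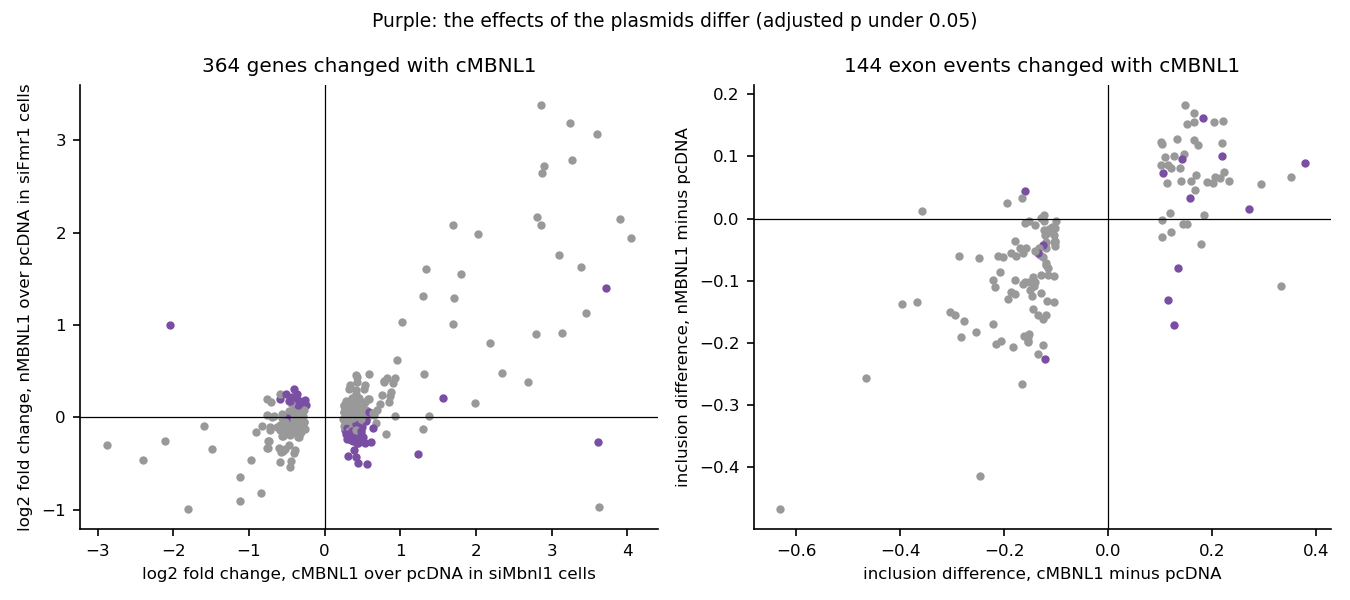
Left, log2 fold change with cMBNL1 (x axis) and with nMBNL1 (y axis) for the 364 genes changed with cMBNL1. Right, inclusion differences for 144 events called with cMBNL1, without those of Mbnl1. Purple marks features whose 2 plasmid effects differed at an adjusted p under 0.05, and Mbnl1 lies among them on the left at 3.72 on the x axis.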

How the data were processed

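For genes, the authors deposited 1 normalized signal value per gene in each of the 15 co-transfection samples, and the table does not name the method, so depth per library is unknown. Splicing tables held junction reads and form lengths per replicate, per the file headers. The p-values and FDR the authors deposited there compare each group with siNT pcDNA and were not used, since no deposited table sets the 2 groups against each other. The submitters' processing notes name Trimmomatic 0.39, Bowtie2 2.3.5, STAR 2.6.1, RSEM 1.3.1 and DESeq2 1.16.1 with GRCm38, in no stated role. Set 2 of both tables was identical.

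Genes that averaged 1 or more across the 15 samples were fitted with limma 3.58.1 (R 4.3.3) on log2(value + 1), all 5 groups in 1 fit with an intensity trend, and called at a Benjamini-Hochberg adjusted p under 0.05. From the table, 4 entries with repeated symbols were dropped. For exons, a quasi-binomial model per event was fitted to the junction reads, with a dispersion moderated across events and at least 1, an F test and the same adjustment. The moderation gave all skipped exon events the same dispersion, 2.49. An event's own replicate spread thus did not enter its p-value, which rests on the difference and the number of reads. A call also needed an inclusion difference of at least 0.1. The comparison with nMBNL1 was an added one. A first form of the exon test counted every replicate in the residual degrees of freedom. After its results on these data had been seen, including the loss of nearly all its calls when a replicate was left out, the rule was changed so that a group with only one form in all replicates gives no residual degrees of freedom. On simulated reads with a spread close to that of the data, both forms recovered the same number of changes at each size, so the simulation did not choose between them there. With a fixed overdispersion instead, the form used here recovered more at every size.

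Named genes were Mbnl1, Mbnl2, Mbnl3, Fmr1, the 10 called genes of largest change per direction with separate groups and a mean of at least 50 in the higher one, and up to 4 called members of each list. Named exons were the 8 of largest change per direction, every tested Mbnl1 and Mbnl2 exon, and every called exon of genes with described MBNL exons. Some genes and exons that this rule selects are not reported here. The members and lists were chosen with earlier results of these data known. The labels do not say that a replicate number marks a shared batch. Deviations of same-numbered cMBNL1 and pcDNA samples correlated at -0.0046, 0.076 and 0.036 over all 16242 tested genes and at 0.0051, 0.011 and -0.022 over exons. Over the 11705 genes with a mean of at least 50 they correlated at 0.16, 0.38 and 0.29, and samples with different numbers at -0.31 to 0.053. The pairing is thus unsettled, the fits were kept without the replicate block, and its values stand beside each named call that it ends. Exon sequences came from GENCODE M21 transcripts. Figures were drawn with matplotlib 3.10.9.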

Additional observations from a re-analysis of the deposited data

Results flagged for a closer look

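The effect of cMBNL1 in siMbnl1 cells and that of nMBNL1 in siFmr1 cells differed, by a test of the difference itself, for 257 genes and 54 skipped exon events. Plasmid and siRNA both differ between the 2 comparisons and cannot be told apart. Among named genes, the log2 change with cMBNL1 minus that with nMBNL1 was 2.31 for Mbnl1, 1.35 for Dcdc2a, 0.94 for L1cam, 0.70 for App, 0.47 for Smg6, -0.48 for Idi1 and -0.50 for Ccng1. Dcdc2a had a mean of 261 in siFmr1 pcDNA and 299 in siFmr1 nMBNL1.

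For exons the test was made on the log-odds scale, and inclusion differences are given here as a description. Among named exons, the inclusion difference with cMBNL1 exceeded that with nMBNL1 by 0.289 for the 27-base exon of Espn and by 0.12 for the 24-base exon of Picalm. For Mbnl1 itself, whose junctions hold plasmid reads, the 2 differences were apart by -1.37 and -0.833 for the 2 events of the 54-base exon, by 1.08 for the 36-base exon and by 0.032 for the 95-base exon.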

How the results depend on the processing

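Gene calls numbered 364, and 2367 when the 6 samples were fitted alone. They numbered 3051 in a fit without siNT pcDNA, which was chosen after seeing the data, and 44 with a log2 change of at least 1. The share of calls that were higher was 64%, 54.5% and 52.9% in the fits of 15, 6 and 12 samples. Without 1 of the 6 samples, 37 to 182 genes passed: 37, 59 and 182 without pcDNA replicates 1, 2 and 3, and 95, 47 and 64 without cMBNL1 replicates 1, 2 and 3. No named call changed direction.

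Exon calls numbered 155, and 5 with limma on log2 ratios (1 higher, 4 lower). They numbered 41 with a difference of at least 0.2 and 530 with no minimum. Without 1 replicate they numbered 107 to 155, and 65 events were called in all 6 such fits. Of the 31 named exons that were called, 16 kept the call in each of these fits. Only 2 kept it in all settings followed for single exons, limma included, and both were Mbnl1 exons, of 54 and 36 bases, whose junctions hold plasmid reads. No named exon of another gene passed limma, where the lowest adjusted p was 0.142, for Celf3. The variants of the first form of the test given below were not followed for single exons. Further settings chosen after seeing the data gave 148 (at least 5 reads of the rarer form) and 109 (dispersion not below the event's own).

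The first form of the exon test, with every replicate counted in the residual degrees of freedom, called 177 events, among them all 155. That form fell to 0 calls with the replicate block (1312 events at an unadjusted p under 0.05) and to 0, 2 and 0 without pcDNA replicates 1, 2 and 3. Without cMBNL1 replicates 1, 2 and 3 it made 0, 0 and 1 calls, with 2481 to 3163 events at an unadjusted p under 0.05 over these 6 fits. The cause was not tested. How firmly the 155 calls hold thus depends on a choice made after the data were seen.

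Whether replicate numbers pair the samples depends on the genes used, as the processing account gives. With the replicate block, 289 genes and 128 exon events passed, and the named calls it ended are given beside their values. Low reads limit single exons such as those of Camk2d, Cops2 and Celf3.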

Other observations

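Zfp606 (log2 difference -0.55), Zfp62 (-0.50) and Zfp37 (-0.47), genes of zinc finger proteins, were among the 31 genes that passed in each fit without a sample. Others of those 31 were Lifr, a cytokine receptor chain (3.62), Esr1, an oestrogen receptor (0.93), Slc19a1, a folate carrier (0.59), and Mfn2, a protein of mitochondrial fusion (0.51). All these genes were singled out after their values were seen.

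Some further called events were likewise picked out one by one after their values were seen, and they do not stand for a group of genes. The 75-base exon of Myo5a, a myosin of vesicle transport, was included at 0.208 ± 0.0403 with cMBNL1 and 0.0259 ± 0.00719 with pcDNA (SD, n = 3). The 132-base exon of Palm, a membrane protein of neurites, was at 0.156 ± 0.0102 and 0.0136 ± 0.00298 (SD, n = 3). The inclusion level of a mutually exclusive pair in Dnm2, a dynamin of endocytosis, was 0.524 ± 0.0255 with cMBNL1 and 0.36 ± 0.0261 with pcDNA (SD, n = 3), and that of a pair in Tpm1, a tropomyosin, was 0.366 ± 0.00519 and 0.509 ± 0.00925 (SD, n = 3).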
